A study of Mus musculus with 7 samples.

Results

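miR-23a, miR-23b, miR-24, miR-27a and miR-27b are mature microRNAs (miRNAs) cut from a pair of paralogous gene clusters. mmu-miR-23a, mmu-miR-23b, mmu-miR-24, mmu-miR-27a and mmu-miR-27b, as the array spells them, were chosen by name among the features of a mouse miRNA microarray, and all 5 were found among its 696 miRNAs. Total RNA was taken from kidneys of male C57BL/6 mice, 9 to 12 weeks old, collected 28 days after the operation and labelled with Cy3. The study compared Unilateral Ureteral Obstruction (UUO), in which the ureter of one kidney is tied off and the kidney becomes fibrotic, with a sham operation in which the ureter was only located. The group label in the deposited record reads treated for 3 of the 7 arrays and non-treated for the other 4, and the arrays are named after it throughout. The record does not say which label stands for obstruction, and its title names sham kidneys. A change is always the treated value minus the non-treated one. The study's own list of changed miRNAs names none of these 5. The signs in that list run opposite to treated minus non-treated, so the labels do not settle which kidneys were obstructed.

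A miRNA guides a silencing complex to mRNAs that pair with its seed, the bases near its 5' end, and lowers their output. In each cluster a single transcript is thought to carry the hairpins of a miR-23, a miR-27 and a miR-24 copy, each hairpin yielding a main strand and a passenger strand, marked with an asterisk in the array's names. The clusters are best known from endothelium and blood vessel growth. miR-27 is also known as a brake on fat cell formation, and miR-24 as an inhibitor of cell cycle progression. Both clusters give the same mature miR-24, so its signal cannot be assigned to either of them, whereas miR-23 and miR-27 come in an a and a b form.

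The RefSeq table (GRCm38.p6) held mature sequences for 4 of the 5 miRNAs, all but miR-23b. They are shown because how far the array can tell the copies apart depends on them, with the seed, bases 2 to 8, in capitals.
miR-23a: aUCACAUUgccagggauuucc
miR-27a: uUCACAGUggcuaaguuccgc
miR-27b: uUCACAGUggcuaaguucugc
miR-24: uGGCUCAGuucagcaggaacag
miR-27a and miR-27b had the same seed and the same base at 20 of 21 positions. The difference was C19U, with miR-27a as the first base and positions counted from 1 at the 5' end, outside the seed. The seeds of miR-23a and miR-27a began with the same 5 bases and then differed.

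The passenger strands of miR-24 also differ between the hairpins, so each of them belongs to a single cluster. Mir24-2 lies in the 23a cluster on chromosome 8, at chr8:84208815-84208921 on the plus strand, and Mir24-1 lies in the 23b cluster on chromosome 13, at chr13:63301208-63301275 on the plus strand. In the hairpins below, the passenger strand (first) and the mature miR-24 (second) are in capitals.
Mir24-2: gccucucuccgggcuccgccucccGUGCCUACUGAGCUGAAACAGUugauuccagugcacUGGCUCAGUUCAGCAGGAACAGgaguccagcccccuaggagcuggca
Mir24-1: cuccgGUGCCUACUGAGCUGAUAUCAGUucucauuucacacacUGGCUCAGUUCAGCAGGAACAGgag
The passenger strands, of 23 bases (miR-24-1*) and 22 bases (miR-24-2*), had the same base at 17 of 22 positions. This count allows no gaps, and no alignment with gaps was made. The mature strand was the same in both hairpins. The whole 23a cluster, Mir23a, Mir27a and Mir24-2, spans 404 bases (chr8:84208518-84208921), and the 23b cluster, Mir23b, Mir27b and Mir24-1, spans 792 bases (chr13:63300484-63301275).

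Signals are background-subtracted spot intensities, averaged per probe, summed over the probes of a miRNA, scaled between arrays and taken as log2. For scaling, the 186 miRNAs found on every array were averaged. Unscaled, their mean log2 signal was 7.24 ± 0.40 (SD, n = 4) for non-treated and 6.09 ± 0.32 (SD, n = 3) for treated arrays, so the scaling decides where no change lies. The array of non-treated replicate 3 was dimmer than the others of its label, at 6.65 against 7.40 to 7.52. A miRNA was tested with limma if either group had it detected on all of its arrays, which left 236. Of these, 144 (61%) passed a Benjamini-Hochberg adjusted p of 0.01, 82 (34.7%) lower and 62 (26.3%) higher on the treated arrays. The median log2 change of all miRNAs tested was -0.13. All arrays lie on 1 slide, and precision is limited by how few there are. The study describes groups of 4 mice, and 4 non-treated and 3 treated arrays (no treated replicate 2) were analysed here. The labels do not tie an array to a mouse, and p-values measure the spread between these arrays.

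miR-23a, miR-27a and miR-24 were lower on the treated arrays, whereas miR-27b was level and miR-23b had a small difference that did not pass. Each of the 5 was detected on all 7 arrays. Thus 3 of the 5 passed in the lower direction, beside 34.7% of all miRNAs tested, and none passed in the higher direction, beside 26.3%. For 4 of the 5 the groups did not overlap with the treated arrays below, beside 41.1% of all miRNAs tested. With so few members these shares are descriptions of the members and not evidence that they stand apart.

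**Figure D1:**
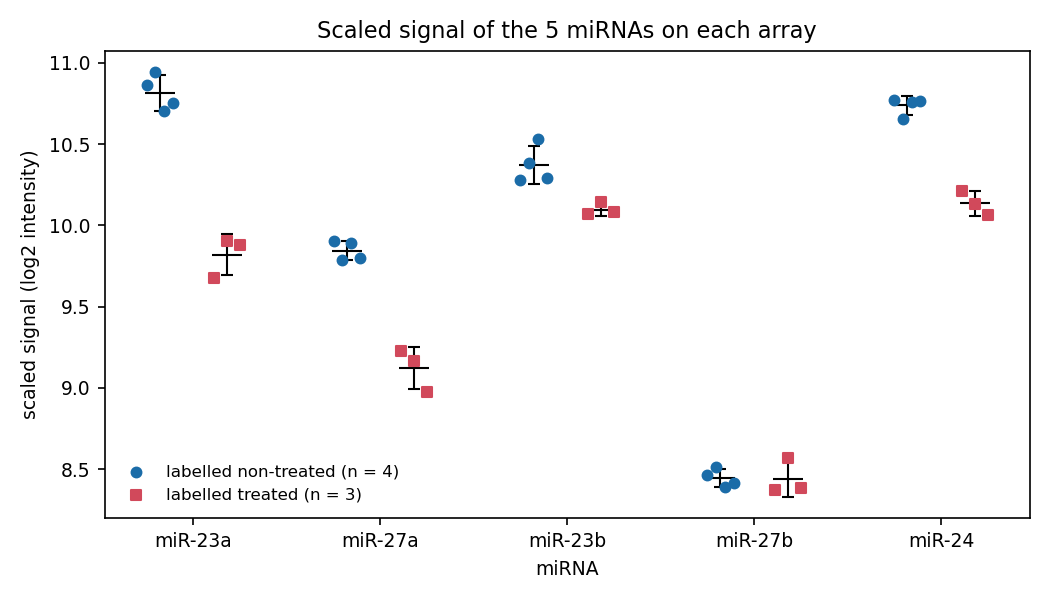
Scaled signal (log2 intensity) of each miRNA on each array, with circles for the 4 non-treated arrays, squares for the 3 treated, and the mean and SD as black bars. The groups are apart for miR-23a, miR-27a, miR-24 and, narrowly, miR-23b, and overlap for miR-27b.

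In the 23a cluster, miR-23a had log2 signals of 10.86, 10.94, 10.704 and 10.75 on the non-treated arrays (replicates 1 to 4) and of 9.68, 9.90 and 9.88 on the treated arrays (replicates 1, 3 and 4). Every treated array lay below every non-treated array, with a gap of 0.80. On the log2 scale miR-23a changed by -0.995 (standard error 0.097, limma adjusted p = 3.04e-05), to 50.2% of the non-treated signal, or 1.99-fold higher on the non-treated arrays. This was the change of largest size among the 5.

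miR-27a, its neighbour on the same transcript, had log2 signals of 9.91, 9.79, 9.89 and 9.80 on the non-treated arrays and of 9.23, 9.17 and 8.98 on the treated arrays. The groups were again apart, by 0.56. Its log2 change of -0.72 (standard error 0.089, limma adjusted p = 1.09e-04) left 60.6% of the non-treated signal, or 1.65-fold more on the non-treated arrays. miR-23a and miR-27a did not differ from each other in their change beyond the spread between arrays. Their difference in log2 change was -0.27 (95% interval -0.63 to 0.083, exact 2-sided permutation p = 0.114), and the groups overlapped in it.

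In the 23b cluster, miR-23b had log2 signals of 10.28, 10.38, 10.53 and 10.29 on the non-treated arrays and of 10.07, 10.14 and 10.08 on the treated arrays. The treated arrays were all lower, but by a gap of 0.14 only. The log2 change was -0.27 (standard error 0.088, 95% interval -0.48 to -0.071), which did not pass at a limma adjusted p of 0.0220.

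miR-27b had log2 signals of 8.46, 8.51, 8.39 and 8.41 on the non-treated arrays and of 8.37, 8.57 and 8.38 on the treated arrays. Its groups overlapped fully, and the highest value was that of treated replicate 3. The log2 change was -0.0033 (standard error 0.084, limma adjusted p = 0.982), with a 95% interval from -0.20 to 0.19. A change of the size seen for miR-27a lies outside that interval.

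miR-24, made by both clusters, had log2 signals of 10.77, 10.65, 10.76 and 10.77 on the non-treated arrays and of 10.21, 10.13 and 10.06 on the treated arrays. The groups were apart by 0.44. miR-24 changed by -0.60 on the log2 scale (standard error 0.078, limma adjusted p = 1.46e-04), which left 65.9% of the non-treated signal, or 1.52-fold more on the non-treated arrays. It lay between the mean change of miR-23a with miR-27a, at -0.86, and that of miR-23b with miR-27b, at -0.14. For the 4 miRNAs whose groups did not overlap, the exact 2-sided permutation test gave p = 0.0571, the smallest that 3 arrays against 4 allow, and for miR-27b it gave p = 0.971. In bulk kidney RNA, fewer cells of a type and less of a miRNA per cell cannot be told apart.

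**Figure D2:**
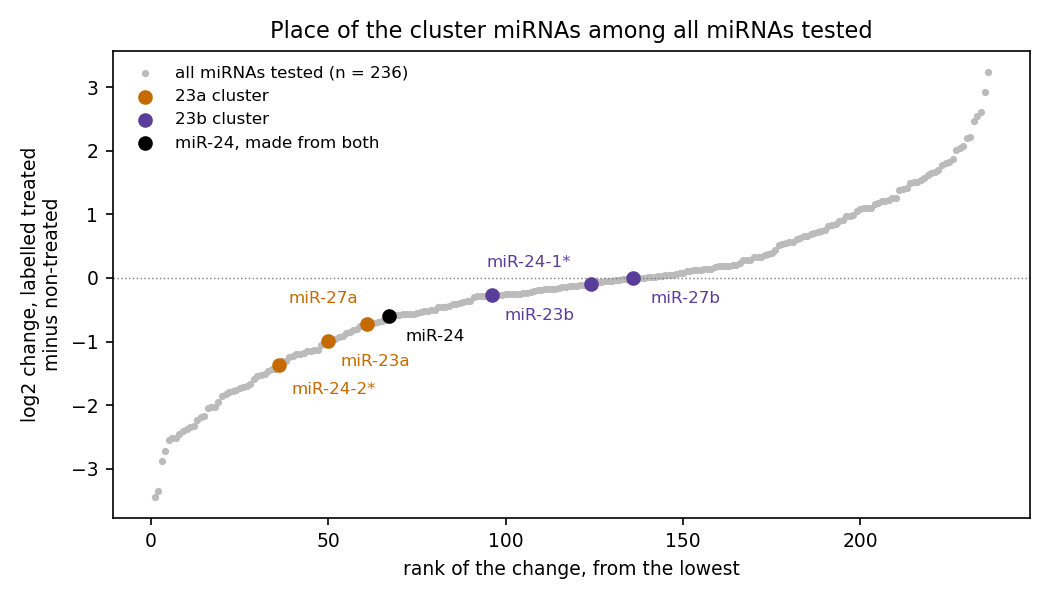
Log2 change (treated minus non-treated) of all 236 miRNAs tested, ordered from the lowest, with the miRNAs of the 23a cluster in orange, those of the 23b cluster in purple and miR-24 in black. The 23a cluster lies lower in the order than the 23b cluster, with miR-24 in between. The lowest of the 23a cluster, miR-24-2*, was detected on only 1 of the 3 treated arrays, so its place is a description.

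In the order of all 236 changes from the lowest, miR-23a stood at rank 50, miR-27a at 61, miR-24 at 67, miR-23b at 96 and miR-27b at 136. Counted from the highest, as when the labels are turned, these ranks were 187, 176, 170, 141 and 101. Thus none of them was among the extremes of the array.

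The a and b copies were then compared on the same array. The difference between the log2 signals of a pair of miRNAs on 1 array does not contain the scaling factor of that array, so how it differs between the groups holds under each scaling by a factor. Its level is not read, since binding strength differs between probes. In both pairs the a copy was lower relative to the b copy on the treated arrays, by nearly the same amount. Such a separation of the groups was common on these arrays, since 75.5% of all pairs of the 236 miRNAs did not overlap either.

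miR-23a minus miR-23b was 0.58, 0.56, 0.17 and 0.46 on the non-treated arrays and -0.39, -0.24 and -0.20 on the treated arrays. Every treated array lay below every non-treated array. Its mean differed between the groups by -0.72 (standard error 0.12, 95% interval -1.03 to -0.41, exact 2-sided permutation p = 0.0571). On non-treated replicate 3, the dimmest array of its label, the difference lay nearest to those of the treated arrays, which were dimmer still, and the part of signal strength in this was not tested. Without that array the value was -0.81.

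miR-27a minus miR-27b was 1.44, 1.28, 1.498 and 1.39 on the non-treated arrays and 0.85, 0.60 and 0.59 on the treated arrays. Here non-treated replicate 3 had the highest value, farthest from the treated arrays. The mean differed between the groups by -0.72 (standard error 0.091, 95% interval -0.95 to -0.49, exact 2-sided permutation p = 0.0571), and without non-treated replicate 3 by -0.69. The mean over both pairs differed by -0.72 (95% interval -0.83 to -0.61). It lay between 0.84 and 1.01 on the non-treated arrays and between 0.18 and 0.23 on the treated arrays.

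**Figure D3:**
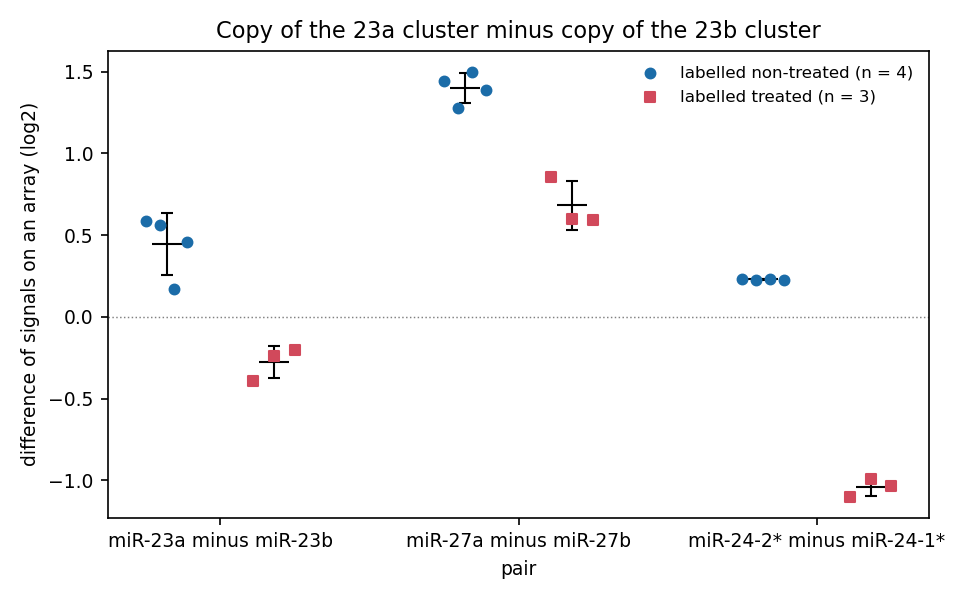
Difference between the log2 signals of a 23a cluster strand and its 23b cluster counterpart on the same array, with circles for the 4 non-treated arrays, squares for the 3 treated, and the mean and SD as black bars. In all 3 pairs the treated arrays lie below every non-treated array, but miR-24-2* was detected on only 1 of the 3 treated arrays.

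All 10 pairs among the 5 miRNAs were compared in this way. The groups did not overlap for 8 of them, each at an exact permutation p of 0.0571, or 0.0714 after Benjamini-Hochberg adjustment over the 10 pairs, so no pair could pass 0.05 in this design. A count of 8 of 10 is near the 75.5% of all pairs, and says nothing particular about the members. The exceptions were miR-23a with miR-27a and miR-24 with miR-27a. miR-24 fell less than miR-27a by 0.12 (95% interval 0.0085 to 0.23, exact permutation p = 0.114), with overlapping groups. Within the 23b cluster, miR-23b minus miR-27b differed between the groups by -0.27 (95% interval -0.51 to -0.032), without overlap.

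At the level of probes, miR-23a, miR-27a and miR-24 were again set apart from the b copies. Their own order did not hold there, since a miR-24 probe (-0.719) lay between the probes of miR-27a (-0.707 and -0.724). Each of the 5 miRNAs has 2 probes of 10 spots, and every one of these spots was well above background on every array. The mean intensity of a probe ranged from 26.3 to 2720, and the spread over its spots had a median coefficient of variation of 12.9%. Of the 371 probes tested on the array, 133 (35.8%) passed in the lower and 91 (24.5%) in the higher direction. All 6 probes of miR-23a, miR-27a and miR-24 passed in the lower direction, and none of the 4 probes of miR-23b and miR-27b passed.

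**Figure D4:**
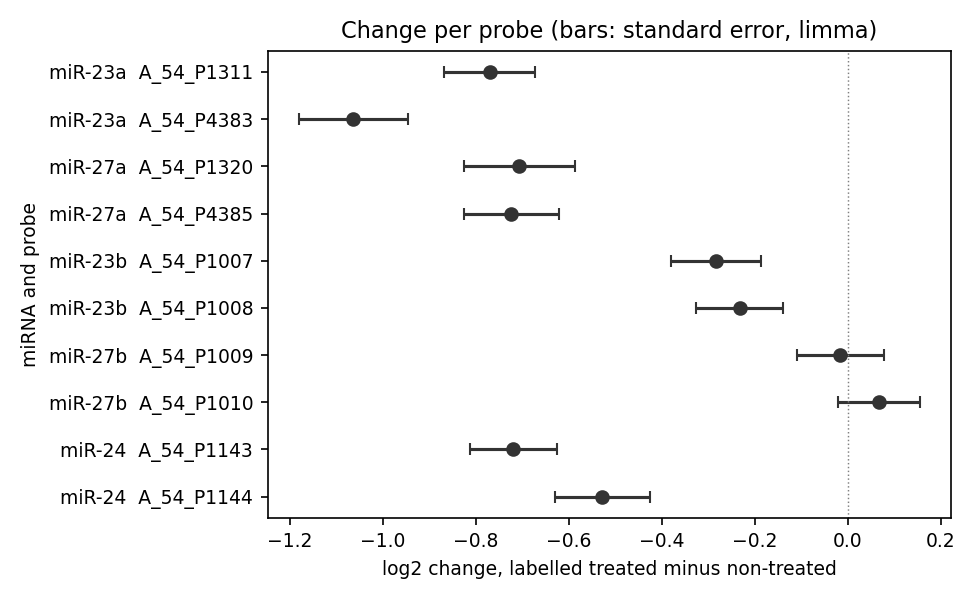
Log2 change (treated minus non-treated) of each of the 10 probes, with limma's standard error as bars. The 6 probes of miR-23a, miR-27a and miR-24 lie between -1.06 and -0.53, and the 4 of miR-23b and miR-27b between -0.28 and 0.067.

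The log2 change was -0.77 (standard error 0.098) for the probe A_54_P1311 of miR-23a and -1.06 (standard error 0.12) for its brighter probe A_54_P4383. The difference between these probes changed by 0.29 between the groups, with no overlap but only narrowly. Treated replicate 1 weighed most in this. Its signal was 9.19 for the brighter probe, against 9.54 and 9.53 on treated replicates 3 and 4. For the other probe it was 7.89, against 7.73 and 7.68. How far the size of the change of miR-23a depends on the probe is therefore not settled. For the other 4 miRNAs the probes of a miRNA overlapped, with differences from -0.19 (miR-24) to 0.016 (miR-27a). The difference between a and b had the same direction for each of the 8 combinations of an a probe with a b probe. It ran from -0.83 to -0.49 for miR-23 and from -0.79 to -0.69 for miR-27. The groups did not overlap in any of them, beside 75.5% of all pairs of miRNAs tested. They were only narrowly apart for A_54_P1311 of miR-23a with A_54_P1007 of miR-23b. The combinations share probes and arrays, so their count is a description. Since miR-27a and miR-27b differ at 1 base, each probe may also bind the other copy. How much was not tested, because probe sequences were not used here. For miR-23a and miR-23b it was not tested either, and no miR-23b sequence was at hand to compare.

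Of the 6 passenger strand names looked for, 4 were on the array. miR-27a* and miR-27b* were detected on none of the 7 arrays, which gives no level for them. Of the other strands, miR-24-2* comes from the 23a cluster and miR-24-1* from the 23b cluster. Whether their probes bind only their own strand was not tested. Only miR-24-2* was lower on the treated arrays among the 2 strands tested.

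miR-24-2* had log2 signals of 3.95, 4.05, 4.03 and 3.86 on the non-treated arrays and of 2.79, 2.78 and 2.26 on the treated arrays. It was detected on 4 of 4 arrays of the first group but on only 1 of 3 of the second, and its undetected values on treated replicates 1 and 4 only bound its level. The log2 change was -1.36, and its probes changed by -1.25 and -1.154, the first of them to near the floor. This strand entered the tested set through the non-treated arrays only, so its change is a description and its test result is not read. This signal was weak throughout. With another background correction, normexp with an offset of 50, its change turned to 0.20. With the deposited value table its change was -0.73 and did not pass, but there treated replicate 4 has an error estimate in place of an intensity. Once those error estimates were dropped, its change was -1.41 and passed (limma adjusted p = 0.00901). These results are not read as tests either.

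miR-24-1* had log2 signals of 3.72, 3.82, 3.80 and 3.63 on the non-treated arrays and of 3.89, 3.78 and 3.30 on the treated arrays, and was detected on all 7. The groups overlapped, with treated replicate 1 the highest and treated replicate 4 the lowest array. The log2 change was -0.090 (standard error 0.14, limma adjusted p = 0.602).

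miR-24-2* minus miR-24-1* lay between 0.227 and 0.230 on the non-treated arrays and was -1.10, -0.99 and -1.04 on the treated arrays. The group means differed by -1.27. This comparison was added after the values were seen, and on 2 of the 3 treated arrays miR-24-2* was not detected, so the value is given as a description with no test. It was -0.055 with normexp and an offset of 50, and -2.43 with the software's total signal. The non-treated values lie closer together than the spots allow, since the spots alone give each of them a standard error of 0.058 to 0.10, so no interval is drawn from them. On the treated arrays the standard error from the spots was 0.12 to 0.29. The size of this difference is therefore not settled.

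The size of each change depended on the scaling. The order of the 5 did not, but a scaling by a factor moves all 5 alike and cannot change it. Among the scalings only quantile normalization could have changed the order, and it did not. With normexp, the other background correction, miR-24 (-1.08) and miR-27a (-1.06) changed places. Across 7 scalings, miR-23a ranged from -2.15 without scaling to -0.75 with the 75th percentile of all miRNAs, and it passed in each of them. miR-27a ranged from -1.88 to -0.47 and also passed in each. miR-24 did not pass with the 75th percentile of all miRNAs (-0.35, limma adjusted p = 0.0112). miR-27b ranged from -1.16 to 0.24, so its direction rests on the scaling. Both b copies passed in the lower direction without scaling and with spike-in controls, where the median of all miRNAs tested was -1.22 and -0.82. Relative to that median, miR-23a lay between -1.03 and -0.87 in the 7 scalings, miR-27a between -0.85 and -0.60, miR-24 between -0.61 and -0.48, miR-23b between -0.22 and -0.15 and miR-27b between -0.096 and 0.12.

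**Figure D5:**
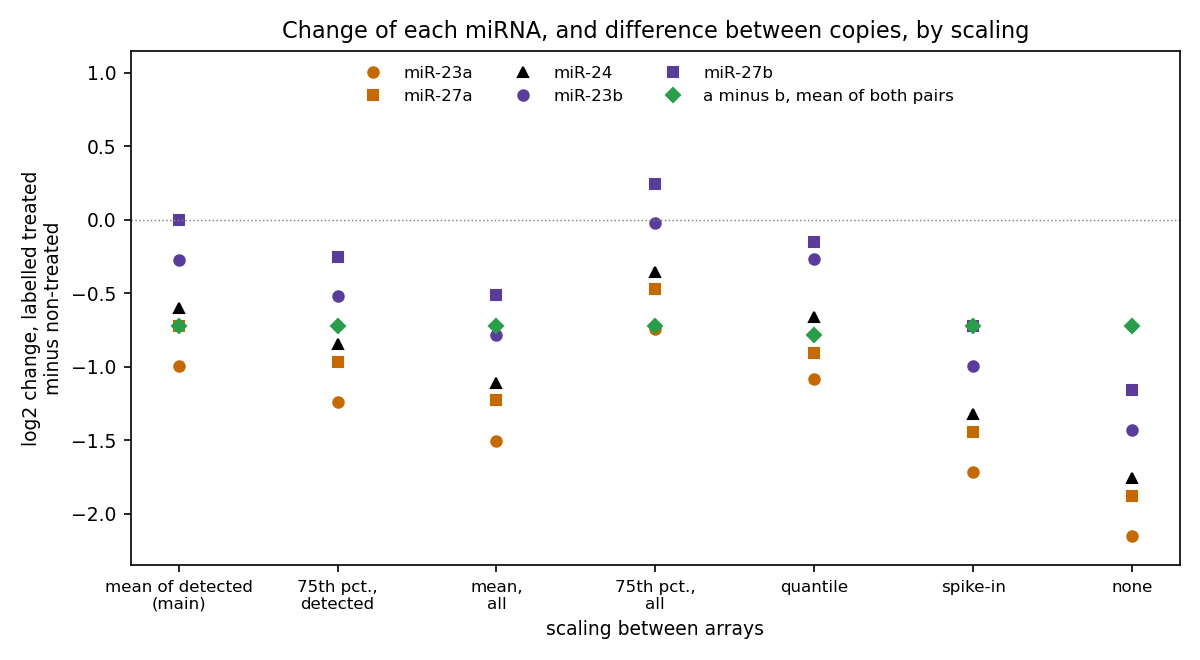
Log2 change (treated minus non-treated) of each of the 5 miRNAs, and the a minus b difference averaged over both pairs (green diamonds), under 7 scalings between arrays. The changes shift together, from -2.15 to 0.24. A scaling by a factor cannot move the a minus b difference (-0.72), which was -0.79 with quantile normalization.

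The arrays lie in 2 rows of the slide, each holding both labels. Within row 1 (1 treated and 2 non-treated arrays) the log2 changes were -1.23 for miR-23a, -0.62 for miR-27a, -0.50 for miR-24, -0.26 for miR-23b and -0.12 for miR-27b. Within row 2 (2 arrays of each) they were -0.84, -0.77, -0.67, -0.30 and 0.074 in the same order of miRNAs. The a copies were below the b copies in both rows.

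The miRNAs whose profile over the 7 arrays was most like that of each member were found among the 181 others detected on every array, by the root mean square difference of log2 signals after each profile was centred on its mean. They were miR-669f-3p (0.10) and miR-195 (0.11) for miR-23a, miR-340-3p (0.054) and miR-125a-5p (0.056) for miR-23b, miR-652 (0.069) and miR-204 (0.074) for miR-24, miR-99b (0.088) and miR-204 (0.091) for miR-27a, and let-7a (0.066) and miR-103 (0.067) for miR-27b. Among the 10 pairs of members the value ran from 0.076 (miR-24 with miR-27a) to 0.50 (miR-23a with miR-27b), with 0.38 for miR-23a with miR-23b and 0.37 for miR-27a with miR-27b. The measure includes the change between the groups. The log2 change of miR-195, a member of the miR-15 and miR-16 family that restrains the cell cycle, was -1.03, near that of miR-23a, and that of let-7a was 0.013, near that of miR-27b.

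Several sets of miRNAs that mark cell types moved with the labels, and their part in the changes above was not tested. The counts below stand beside 34.7% of all miRNAs tested that passed in the lower direction and 26.3% in the higher. The endothelial miR-126-3p and miR-126-5p, of interest because the clusters are known from endothelium, had log2 changes of -0.0018 and 0.076, and neither passed (0 of 2). All 5 mesenchymal and smooth muscle miRNAs passed in the lower direction (median -2.41), with a summed scaled intensity of 2530 to 2867 on the non-treated arrays and 574 to 589 on the treated arrays. All 6 white blood cell miRNAs passed in the lower direction (median -1.89), with sums of 1398 to 1779 and 339 to 352. Of 5 tubule miRNAs, 3 passed in the higher direction (miR-192, miR-194 and miR-30a) and miR-204 in the lower, with sums of 1621 to 1965 and 5512 to 5635, and miR-215 was detected on no array. Both red blood cell miRNAs on the array, of 3 listed, passed in the higher direction, with sums of 1079 to 2329 and 4615 to 5118. Of the 4 muscle miRNAs none passed, 2 were tested and miR-206 was detected on no array, with sums of 19.3 to 57.3 and 20.1 to 21.0. The liver miRNA miR-122 and the brain miRNA miR-124 were detected on no array, and the brain miRNA miR-9 was not tested.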

How the data were processed

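Kidney RNA was hybridized to 7 one-colour Agilent miRNA arrays, grouped by the deposited label. The authors deposited output of Agilent Feature Extraction 10.7.3.1, whose processed signal is a background-subtracted spot intensity, not normalized between arrays. Flags in the same deposited files marked outlier spots and detected miRNAs. A deposited value table holds the intensity of the first spot per probe, and for treated replicate 4 its error estimate, with column medians of 0.28 to 0.53 and 1.00. No spot was saturated.

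Spots without outlier flags were averaged per probe and summed per miRNA. Signals were divided by the scaling factor, raised to a floor of 2.49 (the median over arrays of the lowest detected signal) and converted to log2. The model of limma 3.58.1 (R 4.3.3) covered the 236 miRNAs and, separately, over 371 probes. Exact permutation tests covered 35 splits, as 2 times the smaller tail share. Intervals for pairs use the pooled SD over arrays. The fit was tested on simulated data. The members, lists, named miRNAs (the members, their passenger strands and the 2 nearest profiles of each) and tests were chosen with earlier results of these data known. The same replicate numbers (1, 3 and 4) gave correlations of -0.00057, -0.022 and 0.19 between deviations from group means. The highest correlations with another number were 0.11, 0.11 and 0.023. With so few arrays these values cannot decide whether the numbers pair the arrays. Alternatives covered scaling, signal column, probes, filter, floor, test, threshold, a replicate block and each array left out. The floor at the highest of the lowest detected signals, a block for slide row, the alternatives for passenger strands and the share of all pairs were added after seeing the data.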

Additional observations from a re-analysis of the deposited data

Results flagged for a closer look

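Within the 4 arrays labelled non-treated, the log2 signal of mmu-miR-24 on non-treated replicate 2 was 10.65, against 10.76 to 10.77 on the other arrays, a gap large for the range of the group. Of the 22 sets of 4 values examined this was the only one past the limit of Dixon's test, and chance puts about 5% of sets past it. Without that array the log2 change of miR-24 was -0.63. Over all arrays left out in turn it ranged from -0.64 to -0.54.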

How the results depend on the processing

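miR-23a stayed past the threshold in the lower direction under all 27 alternatives, from -2.15 to -0.75 on the log2 scale, with adjusted p up to 0.00340. With one array left out at a time, it ranged from -1.06 to -0.92, miR-27a from -0.77 to -0.62, miR-24 from -0.64 to -0.54, miR-23b from -0.30 to -0.24, miR-27b from -0.067 to 0.053 and miR-24-1* from -0.21 to 0.12, positive without treated replicate 4. miR-23b passed with a 75th percentile over the miRNAs that every array detected (-0.52), the mean of all miRNAs (-0.78), spike-in controls (-0.99), no scaling (-1.43) and normexp (-0.77). miR-27b passed with spike-in controls (-0.72) and no scaling (-1.16), and was positive with the 75th percentile of all miRNAs (0.24) and the software's total gene signal (0.042). With that percentile, miR-24 did not pass (-0.35, adjusted p = 0.0112), and miR-24-1* was 0.16. Quantile normalization gave 0.093 for miR-24-1* and -0.79 for the mean a minus b difference. Normexp gave 0.26 for miR-24-1* and 0.20 for miR-24-2*.

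In the deposited value table, miR-24 (-0.81) and miR-27a (-1.02, adjusted p = 0.0133) did not pass, miR-24-1* was 0.35, the miR-27a minus miR-27b difference was -0.93 and the mean a minus b difference -0.81. Without the column of treated replicate 4 in that table, miR-27a was -0.72 and passed (limma adjusted p = 0.00823). There miR-24 was -0.47 and did not pass, miR-27b was 0.056 and miR-24-1* 0.062. miR-24 (-0.60) did not pass Bonferroni adjustment. The causes were not tested.

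Of all miRNAs, 37 were higher and 124 lower with the mean of all miRNAs, 30 and 157 with spike-in controls, 8 and 167 without scaling, 89 and 53 with normexp, 50 and 104 with the 75th percentile of detected miRNAs, and 76 and 61 with that of all, against 62 and 82. The deposited table gave 61 (34 higher, 27 lower), or 94 with 48 lower without treated replicate 4, and Bonferroni adjustment 84 (39 higher, 45 lower). The methods' t-test called 138 at an unadjusted p under 0.01 and 126 after Benjamini-Hochberg. With one array left out, 126 to 157 were called.

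Whether the replicate numbers pair the arrays was not settled. With the replicate block, miR-27b was 0.019, and 126 miRNAs were called against 144. The treated arrays were all dimmer before scaling, and among the strands tested miR-24-2* was detected on only 1 of 3 of them.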
